A study of Homo sapiens with 9 samples.

Results

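The genes described here encode the constitutive proteasome: 14 subunits of the barrel-shaped 20S core and 17 subunits of the 19S cap, without the immunoproteasome. They were taken by symbol, 1 row on a main chromosome for each, and all 31 were found among the 33754 genes with a count in at least 1 library. All 31 passed the filter on low counts and were among the 17568 genes tested. RNA-seq was measured in THP-1 cells, an established human line from an acute monocytic leukaemia, grown in suspension. Of the 9 libraries, 3 came from cells given lupeol at 50 µmol/L (lupeol 50), 3 from cells given lupeol at 80 µmol/L (lupeol 80) and 3 from cells given its solvent (control). Lupeol is a plant triterpene, and RNA was taken after 48 h. All groups share the same line and medium. The labels are silent on whether replicates are independent cultures, so a p-value here measures library-to-library spread, some or all of it possibly technical.

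The proteasome is the protease of the cytosol and nucleus that breaks down proteins tagged with ubiquitin. Its core is a stack of rings: the outer alpha rings form the gate, and the inner beta rings carry the catalytic sites. The cap binds ubiquitin chains, removes them, and unfolds the substrate with a ring of ATPases that feeds it into the core. When the proteasome is impaired, the transcription factor NRF1, encoded by NFE2L1, is known to raise the genes of most subunits together through antioxidant response elements in their promoters. Monocytic cells also carry immunoproteasome subunits, interferon-inducible copies that replace the catalytic subunits of the core.

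The libraries ranged in depth from 26134744 to 38430299 counts, the most being in lupeol 80 replicate 1. The control libraries are named 1, A and B, because 2 of them share one heading in the deposited table. Levels below are CPM, the count scaled to library size after TMM normalization, and in bulk RNA fewer cells of a type and less RNA per cell cannot be told apart. All 12 markers of THP-1 and monocytic cells stood above a mean of 1 CPM, with summed levels of 3126 to 3868 CPM in lupeol 50, 3692 to 4133 CPM in lupeol 80 and 3794 to 4509 CPM in control. Of these 12, CEBPA, a myeloid transcription factor, was called at lupeol 80, with a log2 fold change of -0.80 (adjusted p = 0.0234). None of the 5 markers each of T, erythroid, epithelial and fibroblast cells reached a mean of 1 CPM. Of B cell genes, MS4A1 had no count, CD79A and CD79B averaged 0.166 and 0.813 CPM over the 9 libraries, and PAX5 ranged from 38.3 to 59.6 CPM in lupeol 50, 17.6 to 34.0 CPM in lupeol 80 and 40.7 to 48.5 CPM in control; the part of this in the results was not tested.

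The median subunit stood at a mean of 153 CPM, against 13.2 CPM for the median gene tested. Of the 31 subunits, 27 stood above 50 CPM, and PSMD2, the large scaffold of the cap base, was the most abundant by CPM at 344. The alpha ring held 3 exceptions: PSMA1, PSMA6 and PSMA2 had means of 22.9, 4.22 and 1.46 CPM over the 9 libraries. These are also the only subunits that share coding bases with another gene row on the same strand. In GENCODE the overlap covers 91% of the coding bases of PSMA1, 89.7% of those of PSMA6 and 100% of those of PSMA2, and in each case the other row is a longer transcript that reads through from a neighbouring gene. The readthrough rows themselves held at most 11 counts in a library. The part of shared exons in the low counts was not tested, and the levels of these 3 genes are uncertain. The other 28 subunits share at most a strip of noncoding exon with a row on their own strand. On the opposite strand, 47.7% of the coding bases of PSMC1 lie under NRDE2, 30% of those of PSMD7, 10% of those of PSMC5 and 7.19% of those of PSMD11 under other rows, and whether the counting used strand is unstated in the sources used here. Pseudogenes drew few reads: of 36 rows for pseudogenes of these subunits, 14 had a count, and none had more than 28 in a library.

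Levels can be compared between genes only per length, and for this the counts were divided by the deposited gene length and scaled to TPM. In control cells the 28 subunits that share no coding bases with a row on their own strand spanned a 14-fold range. PSMA7 of the alpha ring led at 650 ± 43.2 TPM (SD, n = 3). It was followed by 3 beta ring subunits, PSMB4 at 576 ± 40.5 TPM, PSMB3 at 525 ± 14.3 TPM and PSMB1 at 450 ± 37.5 TPM. PSMC3 was the highest ATPase, at 381 ± 10.1 TPM, and PSMD4, a ubiquitin receptor, the highest of the other cap subunits, at 315 ± 21.1 TPM. At the low end stood the lid subunit PSMD6 at 46.3 ± 3.21 TPM and the ATPase PSMC1 at 46.9 ± 6.76 TPM. Of the 27 pairs of neighbours among these 28, 18 overlapped between the 3 control libraries, so most ranks next to each other were not distinct. The order also depended on the length used: with the longest coding transcript of GENCODE in place of the deposited length, PSMB4 led at 828 ± 52.7 TPM with PSMA7 second at 746 ± 44.6 TPM, PSMD6 stood at 183 ± 11.5 TPM, and the range was 19.7-fold.

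**Figure D1:**
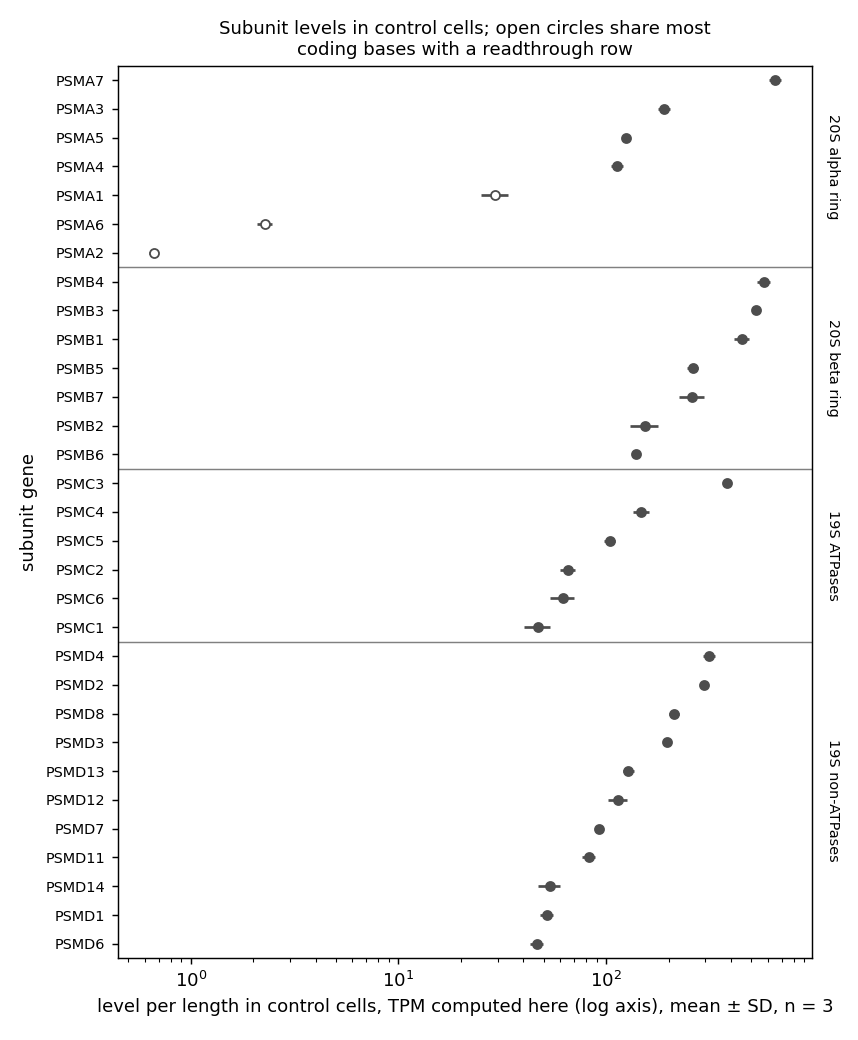
Level per length of each subunit in control cells (TPM computed from the deposited counts and gene lengths, log axis; mean ± SD of 3 libraries), ordered within each subcomplex. The open circles are PSMA1, PSMA6 and PSMA2, which share most coding bases with a readthrough row and stand below the 28 other subunits, which lie between 46.3 and 650 TPM.

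The libraries differed in their proteasome level beyond their groups. The summed level of the 31 subunits was 4845, 5196 and 5090 CPM in lupeol 50 replicates 1 to 3 and 3936, 4604 and 4907 CPM in lupeol 80 replicates 1 to 3, against 4283, 4339 and 4877 CPM in controls 1, A and B. Control B lay above the other controls: it exceeded both other controls for 28 of 31 subunits, where 38.5% of all genes tested did so. Lupeol 80 replicate 1 was lowest of all 9 libraries for 15 of 31 subunits, where 19.6% of all genes did so. The counts of lupeol 80 replicate 1 differed from the rest of its group by a chi-square of 49.6 and 65.9 per degree of freedom. The same measure was 5.3 between controls 1 and A, while control B was 21.8 and 27 from them and 8.08 from lupeol 50 replicate 1. Lupeol 50 replicate 1 was in turn 32.2 and 19.3 from replicates 2 and 3 of its group, so these libraries were each closer to the other than to their own groups. Results are also given without control B and lupeol 80 replicate 1, a pair that an earlier analysis of these data had singled out. Control B had the highest summed subunit level of the controls, and lupeol 80 replicate 1 the lowest of all libraries. Leaving both out tends to raise subunit values against control by the choice itself. For the subunits these fits are a description and no check.

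**Figure D2:**
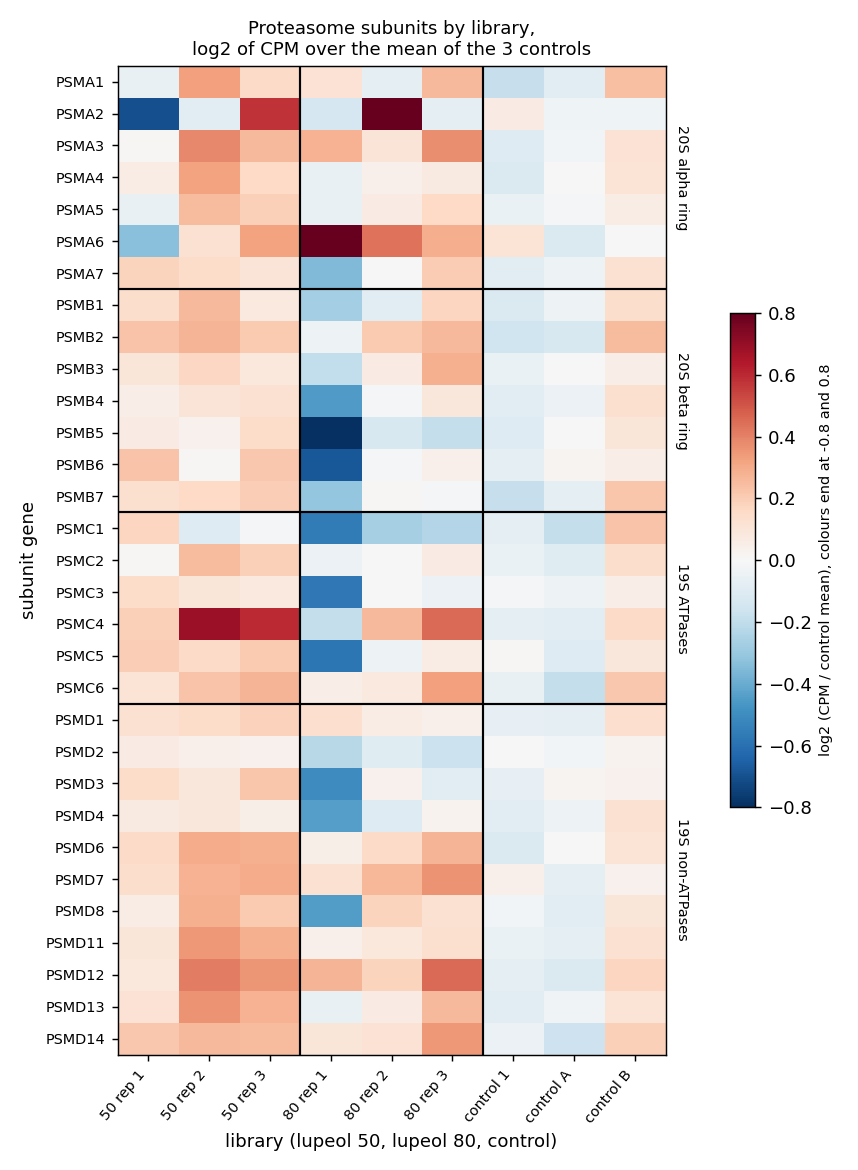
Log2 of each subunit's CPM over the mean of the 3 controls (colour scale from -0.8 to 0.8), with subunits in rows by subcomplex and the 9 libraries in columns: lupeol 50, lupeol 80, control. Lupeol 50 replicates 2 and 3 are the reddest columns, with medians of 0.24 and 0.21 over the 31 subunits, and the deepest blue cells of lupeol 80 replicate 1 lie in the beta ring and the ATPases.

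The low values of lupeol 80 replicate 1 lay mostly in subunits of high GC content. Across the 31 subunits, its log2 difference from the mean of replicates 2 and 3 had a Spearman correlation of -0.67 with the GC content of the longest coding transcript. Across 13385 genes tested that have a coding transcript the same correlation was -0.47. With transcript length the correlation of this library was 0.40 over the subunits and 0.38 over all those genes. Other libraries showed such trends too: for lupeol 50 replicate 1 against the rest of its group, the correlation with GC content was 0.52 over the subunits and 0.28 over all. These points share the libraries and are not independent, and the values are given as a description. For the 15 subunits of lowest GC content, 36.8 to 47.9%, the median of lupeol 80 replicate 1 was 0.07 on the log2 scale relative to the control mean. For the 16 of highest GC content, 48.3 to 58.6%, it was -0.44. The beta ring and ATPase medians of that library, -0.30 and -0.37, were lower than the median of the cap subunits without ATPase activity, at 0.04. GC content also differed between subcomplexes. In the beta ring only PSMB2, at 43.6%, fell among the 15 of lowest GC content. In the alpha ring only PSMA7, at 53.1%, fell among the 16 of highest. GC content and subcomplex were not separated here, and the part of GC content in the medians of that library was not tested. At lupeol 80 against control, the median was 0.16 for the 15 subunits of lowest GC content and -0.13 for the 16 of highest. Against lupeol 50 the lupeol 80 medians were -0.05 and -0.24. At lupeol 50 against control they were 0.205 and 0.149. Lupeol 80 replicates 2 and 3, each against the rest of its group, had correlations with GC content of 0.57 and 0.48 over the subunits. Over the 13385 genes with a coding transcript they were 0.51 and 0.12. Replicate 1 is part of the reference for both, so these values are not independent of its own correlation. The part of GC content in the lupeol 80 results was not tested beyond leaving lupeol 80 replicate 1 out.

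**Figure D3:**
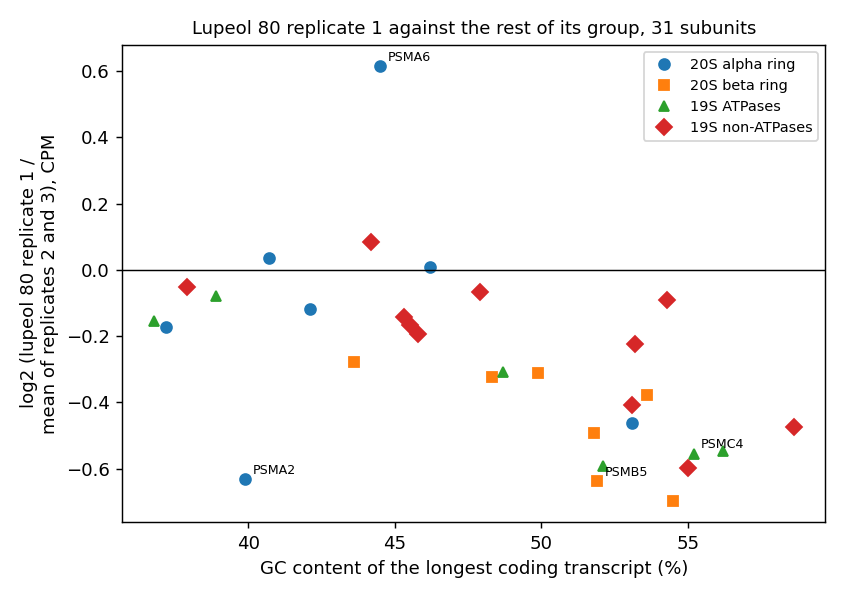
GC content of the longest coding transcript (x axis, percent) against the log2 ratio of CPM in lupeol 80 replicate 1 to the mean CPM of replicates 2 and 3 (y axis), 1 point for each of the 31 subunits, marked by subcomplex. Points fall towards higher GC content (Spearman correlation -0.67), and PSMA2, at a mean of 1.46 CPM, lies low on the left.

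The first comparison set lupeol 50 against control. All 31 subunits had a log2 fold change above 0, where 49.5% of the 17568 genes tested did and 50.5% lay below, with a median of 0.16 and a range of 0.02 to 0.51. The median corresponds to a level 11.4% above control. edgeR's quasi-likelihood test called 0 of 31 subunits at a Benjamini-Hochberg adjusted p under 0.05, as it called 0% of all genes in this comparison. DESeq2 and limma-voom also called 0 subunits, beside 0.622% of the 33754 genes with a count and 0% of the genes tested. The smallest edgeR adjusted p among subunits was 0.233, for PSMC4. At an unadjusted p under 0.05 stood 6 subunits, all above control and all in the cap, beside 6.40% of all genes on that side and 6.02% on the other. The 3 lupeol 50 libraries stood above all 3 controls for 10 subunits, beside 9.55% of all genes, and below them for 0 subunits, beside 9.63%. Subunits share the same libraries, so their common direction is 1 observation on 9 libraries rather than 31.

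The size of this shift depended on control B and on lupeol 50 replicate 1. The median was 0.24 without control B and 0.23 without lupeol 50 replicate 1, and it ranged from 0.12 to 0.24 over the 9 fits that each left out 1 library. Lupeol 50 replicates 2 and 3 both stood above every control for 20 of 31 subunits, where 21.6% of all genes did so. Lupeol 50 replicate 1 stood below control B for 19 of them, where 51.9% of all genes did so. With control B and lupeol 80 replicate 1 both left out, the median was 0.23 and 30 subunits stood above 0. In that fit edgeR called 2 subunits higher, PSMC4 and PSMB2, and 5.08% of all genes in either direction.

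The second comparison set lupeol 80 against control. The subunits divided here, with 18 above and 13 below control, where 51.1% of all genes stood above and 48.9% below, and the median log2 fold change was 0.06 with a range of -0.35 to 0.60. edgeR called 0 of 31 subunits, beside 1.14% of all genes (0.290% higher and 0.854% lower). DESeq2 and limma-voom called 0, beside 2.65% of the 33754 genes with a count and 0.603% of the genes tested. The smallest edgeR adjusted p among subunits was 0.17, for PSMC1. At an unadjusted p under 0.05 stood 3 subunits above control, beside 8.84% of all genes, and 2 below, beside 10.7%. Groups did not overlap for 3 subunits on the higher side, beside 11.0% of all genes, and for 3 on the lower side, beside 12.9%. These shares are close to those of all genes. Without PSMA1, PSMA2 and PSMA6, the 28 other subunits had a median of 0.01 at lupeol 80, with 15 above and 13 below control.

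Between subcomplexes the medians at lupeol 80 were 0.11 for the alpha ring, -0.10 for the beta ring, -0.08 for the ATPases and 0.08 for the other cap subunits. At lupeol 50 the same medians were 0.14, 0.16, 0.17 and 0.24. Both doses are set against the same 3 controls, so these columns are not independent. GC content also differs between subcomplexes, and its part in these medians was not tested. Without lupeol 80 replicate 1, 24 of 31 subunits stood above control at lupeol 80, with a median of 0.10. With control B left out too, 27 did, with a median of 0.17, a rise that the choice of libraries left out favours. In the last fit PSMB2, a subunit of the beta ring, was the 1 subunit called, and 4.78% of all genes were called in either direction.

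The third comparison set lupeol 80 against lupeol 50. Here 26 of 31 subunits stood lower at lupeol 80, where 50.0% of all genes did, with a median of -0.17 and a range of -0.43 to 0.54. edgeR called 0 subunits, beside 0.0455% of all genes (0.0342% higher and 0.0114% lower), and its smallest adjusted p was 0.185, for PSMB5. DESeq2 and limma-voom called 0, beside 1.24% of the 33754 genes with a count and 0.0114% of the genes tested. The lupeol 80 libraries lay below all lupeol 50 libraries for 8 subunits, beside 9.63% of all genes, and above them for 0, beside 9.42%. An unadjusted p under 0.05 was found for 6 subunits on the lower side, beside 8.18% of all genes, and for 1 on the higher side, beside 7.23%. Without lupeol 80 replicate 1 the median was -0.08, and 8 subunits stood above 0. A test for any difference among the 3 groups called 0 subunits, beside 0.233% of all genes.

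**Figure D4:**
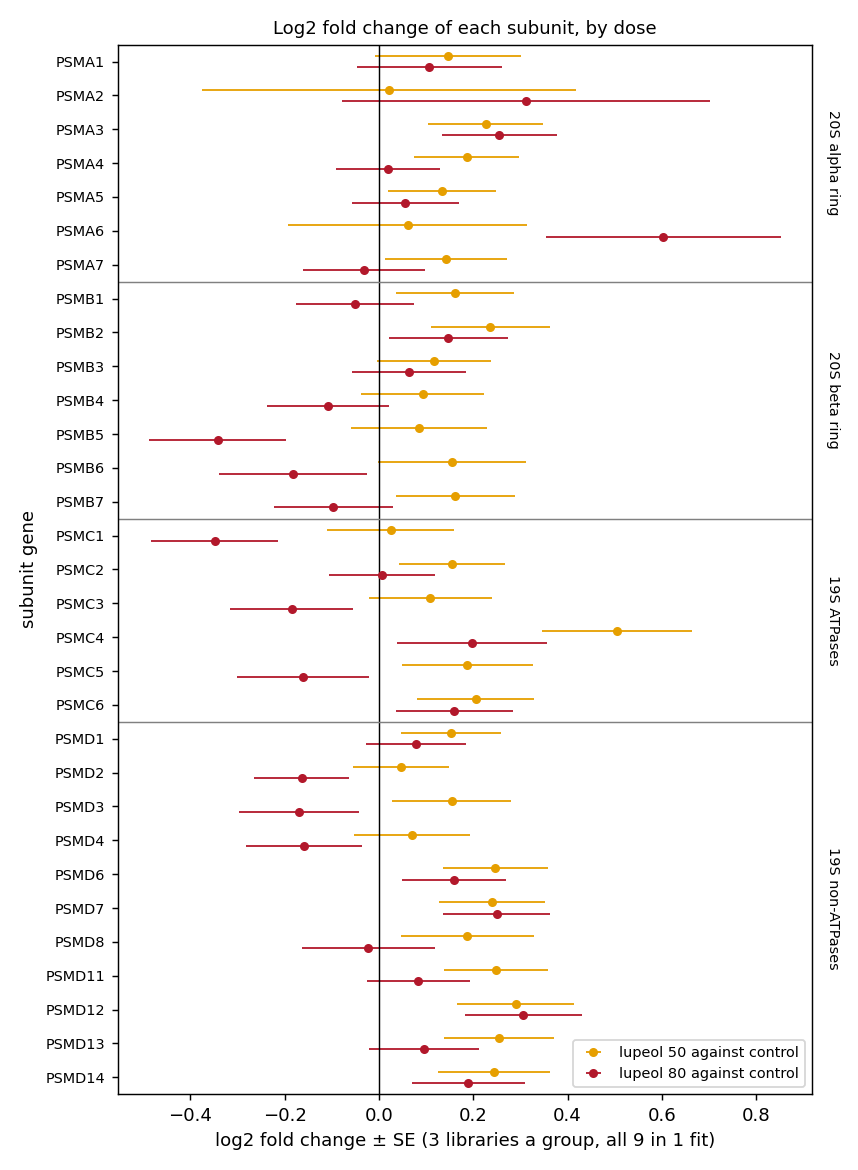
Log2 fold change ± SE of each subunit for lupeol 50 against control and lupeol 80 against control, from 1 edgeR fit of all 9 libraries, with subunits in rows by subcomplex. All 31 lupeol 50 points lie to the right of 0, from 0.02 to 0.51, while the lupeol 80 points lie on both sides, and none passed the test in either comparison.

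Promoter sequences from RefSeq on GRCh38.p14 were available for 26 of the 31 genes, and the 250 bases before each start were searched on both strands for 3 motifs. The core of the antioxidant response element, TGACNNNGC, which NRF1 and NRF2 bind with small MAF partners, was found in 5 of the 26, or 19.2%, beside 10.9% of 35116 promoters of the same length. The CCAAT box, bound by NF-Y, was found in 12, or 46.2%, beside 32% of all. CCGGAAG, a core bound by ETS factors, was found in 6, or 23.1%, beside 8.52% of all. A match of letters is a description and not a binding site, and the 3 motifs do not overlap by their letters. Of the 5 antioxidant response element cores, those of PSMB3, PSMD3 and PSMD12 lie outside all annotated exons and are shown with their surroundings, since the factor that binds such cores is itself among the genes called below. The 9 bases in capitals mark the core. The stretches lie at chr17:38752491-38752740 on the forward strand for PSMB3, chr17:39980557-39980806 on the forward strand for PSMD3 and chr17:67366606-67366827 on the reverse strand for PSMD12, each read 5′ to 3′ towards its gene.
PSMB3: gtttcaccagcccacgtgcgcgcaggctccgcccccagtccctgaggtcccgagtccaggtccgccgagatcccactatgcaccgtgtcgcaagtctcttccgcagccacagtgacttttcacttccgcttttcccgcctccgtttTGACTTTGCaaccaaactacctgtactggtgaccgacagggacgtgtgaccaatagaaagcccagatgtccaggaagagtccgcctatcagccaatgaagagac
PSMD3: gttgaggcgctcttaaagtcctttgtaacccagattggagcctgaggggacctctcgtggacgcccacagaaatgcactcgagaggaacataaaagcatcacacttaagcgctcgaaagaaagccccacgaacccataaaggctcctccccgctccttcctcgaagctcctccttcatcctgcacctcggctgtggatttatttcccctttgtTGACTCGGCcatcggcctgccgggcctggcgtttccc
PSMD12: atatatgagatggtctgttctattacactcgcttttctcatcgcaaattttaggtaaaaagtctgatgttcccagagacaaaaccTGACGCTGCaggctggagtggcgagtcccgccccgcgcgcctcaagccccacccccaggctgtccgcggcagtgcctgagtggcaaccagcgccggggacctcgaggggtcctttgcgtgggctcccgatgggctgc

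The core begins 104 bases before the start of PSMB3, 37 before that of PSMD3 and 165 before that of PSMD12. At lupeol 50 against control, the log2 fold changes of the 5 genes with a core were 0.12 ± 0.12 for PSMB3, 0.15 ± 0.13 for PSMD3, 0.29 ± 0.12 for PSMD12, 0.19 ± 0.11 for PSMA4 and 0.19 ± 0.14 for PSMC5. At lupeol 80 they were 0.06 ± 0.12, -0.17 ± 0.13, 0.31 ± 0.12, 0.02 ± 0.11 and -0.16 ± 0.14 in the same order of genes. None was called, and differences between the genes were not tested. For PSMD3, lupeol 80 replicate 1 stood at 167 CPM, below replicates 2 and 3 at 241 and 222 CPM.

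In the alpha ring, all 7 subunits stood above control at lupeol 50 and 6 did at lupeol 80. PSMA7 (chromosome 20, 62136733 to 62143440), the most abundant, had 311, 304 and 296 CPM at lupeol 50 and 215, 276 and 317 CPM at lupeol 80, against 259, 267 and 299 CPM in control. Only lupeol 80 replicate 1 lies clear of the other 8 libraries, below them, and both doses overlap control. The log2 fold changes were 0.14 ± 0.13 at lupeol 50 and -0.03 ± 0.13 at lupeol 80. PSMA3 stood at 144, 187 and 171 CPM at lupeol 50 and at 173, 153 and 185 CPM at lupeol 80, against 133, 141 and 155 CPM in control. Of the 6 treated libraries, 2 fell within the control range, and the log2 fold changes of 0.23 ± 0.12 and 0.26 ± 0.12 had adjusted p-values of 0.461 and 0.257.

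PSMA6 had the largest log2 fold change of any subunit at lupeol 80, but on few counts. It stood at 2.82, 3.87 and 4.45 CPM at lupeol 50 and at 7.00, 4.80 and 4.35 CPM at lupeol 80, against 3.84, 3.28 and 3.55 CPM in control. The 3 lupeol 80 libraries lay above every control, with lupeol 80 replicate 1 farthest, and the log2 fold change was 0.60 ± 0.25 with an adjusted p of 0.194. Without that library it was 0.36. PSMA2 stood at 0.825, 1.26 and 2.00 CPM at lupeol 50 and at 1.22, 2.51 and 1.27 CPM at lupeol 80, against 1.41, 1.31 and 1.31 CPM in control. Its groups overlap at both doses, with log2 fold changes of 0.02 ± 0.40 and 0.31 ± 0.39, and its sign changed when single libraries were left out. PSMA1, PSMA4 and PSMA5 had log2 fold changes of 0.13 to 0.19 at lupeol 50 and of 0.02 to 0.11 at lupeol 80, and their groups overlapped in every comparison.

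In the beta ring, 7 of 7 subunits stood above control at lupeol 50, while 5 of 7 stood below it at lupeol 80 and 7 of 7 stood lower at lupeol 80 than at lupeol 50. PSMB5, PSMB6 and PSMB7 carry the catalytic sites, which cut after hydrophobic, acidic and basic residues in that order. PSMB5 (chromosome 14, 23016543 to 23035230) had 103, 100 and 109 CPM at lupeol 50 and 56.4, 89.5 and 86.0 CPM at lupeol 80, against 91.0, 98.2 and 105 CPM in control. All 3 lupeol 80 libraries lay below every control and every lupeol 50 library, and lupeol 80 replicate 1 lay far below the rest. The log2 fold change at lupeol 80 was -0.34 ± 0.14 against control (adjusted p = 0.204) and -0.43 ± 0.14 against lupeol 50 (adjusted p = 0.185). Without lupeol 80 replicate 1 the value against control was -0.16.

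PSMB6 had 56.9, 48.9 and 56.3 CPM at lupeol 50 and 30.3, 48.2 and 49.9 CPM at lupeol 80, against 45.9, 49.2 and 50.4 CPM in control. Lupeol 80 replicates 2 and 3 lay within the control range, and replicate 1 below it, for a log2 fold change of -0.18 ± 0.16. PSMB7 had 123, 125 and 128 CPM at lupeol 50 and 90.3, 113 and 112 CPM at lupeol 80, against 98.8, 107 and 131 CPM in control. The lupeol 80 libraries all lay below the lupeol 50 libraries (-0.26 ± 0.13, adjusted p = 0.333), but both doses overlapped the wide control range. PSMB4, the most abundant beta subunit per length, had 306, 318 and 322 CPM at lupeol 50 and 216, 292 and 315 CPM at lupeol 80, against 278, 286 and 323 CPM in control. Again replicate 1 alone lay outside the other libraries at lupeol 80, and the log2 fold change was -0.11 ± 0.13. PSMB1, PSMB2 and PSMB3 had values of 0.12 to 0.24 at lupeol 50 and of -0.05 to 0.15 at lupeol 80.

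Of the 3 immunoproteasome counterparts of the catalytic subunits, PSMB10 and PSMB9 were called at lupeol 80 and PSMB8 was not. PSMB10, which replaces PSMB7, fell by 1.01 ± 0.16 on the log2 scale at lupeol 80 (edgeR, adjusted p = 0.0172). It stood at 43.5, 32.2 and 34.2 CPM at lupeol 50 and at 20.2, 27.9 and 30.3 CPM at lupeol 80, against 57.2, 55.5 and 44.9 CPM in control. Both doses lay below every control, although the lupeol 50 value, -0.52 ± 0.16, was not called (adjusted p = 0.222). At that dose 2 of 18 alternatives called PSMB10, with adjusted p-values from 0.0185 to 0.824 over the 18. The row of PSMB10 shares 39.4% of its exon bases with another row on the same strand, which held 54 to 123 counts per library.

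PSMB9, which replaces PSMB6, fell by 0.63 ± 0.12 at lupeol 80 (adjusted p = 0.0274). It stood at 76.1, 73.1 and 67.3 CPM at lupeol 50 and at 50.7, 59.98 and 49.3 CPM at lupeol 80, against 79.8, 93.1 and 74.2 CPM in control, and only the lupeol 80 libraries were clear of control. PSMB8, which replaces PSMB5, stood at 230, 179 and 191 CPM at lupeol 50 and at 171, 180 and 200 CPM at lupeol 80, against 239, 254 and 216 CPM in control. Its lupeol 80 libraries also lay below every control, but the value of -0.36 ± 0.12 was not called (adjusted p = 0.121). Of 18 alternatives 16 called PSMB10, with adjusted p-values from 8.81e-09 to 0.123. The call ended without control 1 (0.123) and without control A (0.0976). At lupeol 80 those fits called 0% and 0.00551% of all genes, beside 1.14% in the fit of all 9 libraries. PSMB9 was called in 13, with adjusted p-values from 0.000584 to 0.178. Its call ended without control 1 (0.145), control A (0.178), lupeol 50 replicate 3 (0.0603) or lupeol 80 replicate 3 (0.0901), and with only the 2 groups compared (0.0537). Without lupeol 50 replicate 3, without lupeol 80 replicate 3 and with the 2 groups, 0.236%, 0.237% and 0.458% of all genes were called.

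The immunoproteasome subunits were not minor in these cells. In control cells PSMB8 stood at 281 ± 25 TPM beside PSMB5 at 262 ± 15.7 TPM. PSMB9 stood at 102 ± 12.6 TPM beside PSMB6 at 139 ± 5.53 TPM, and PSMB10 at 134 ± 18.3 TPM beside PSMB7 at 260 ± 35.9 TPM. These levels depended on the length used. With the longest coding transcript as length, PSMB9 stood above PSMB6, at 281 ± 35.7 beside 150 ± 5.26 TPM. On that length PSMB8 stood at 473 ± 44.4 TPM beside PSMB5 at 204.5 ± 11.0 TPM. PSMB10 stood at 117 ± 16.6 TPM beside PSMB7 at 309 ± 40.7 TPM. The count of PSMB10 over that of PSMB7 was 0.354, 0.257 and 0.266 at lupeol 50 and 0.224, 0.247 and 0.272 at lupeol 80, against 0.579, 0.52 and 0.343 in control. All lupeol 80 ratios lie below the control ratios. For PSMB9 over PSMB6 and PSMB8 over PSMB5 the lupeol 80 and control ratios overlap. The ratios were chosen after the values were seen, and 9 comparisons of them were made (3 pairs in 3 comparisons, exact two-sided permutation test on log2 ratios). For lupeol 80 against control the exact p was 0.1 for PSMB10 over PSMB7, the smallest that 3 libraries against 3 allow, 0.2 for PSMB9 over PSMB6 and 1 for PSMB8 over PSMB5, and the permutation p-values adjusted over the 9 comparisons were 0.3, 0.3 and 1. PSMA8 had no count in any library and PSMB11 had 1 library above 0, so these subunits of testis and thymus were not tested.

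**Figure D5:**
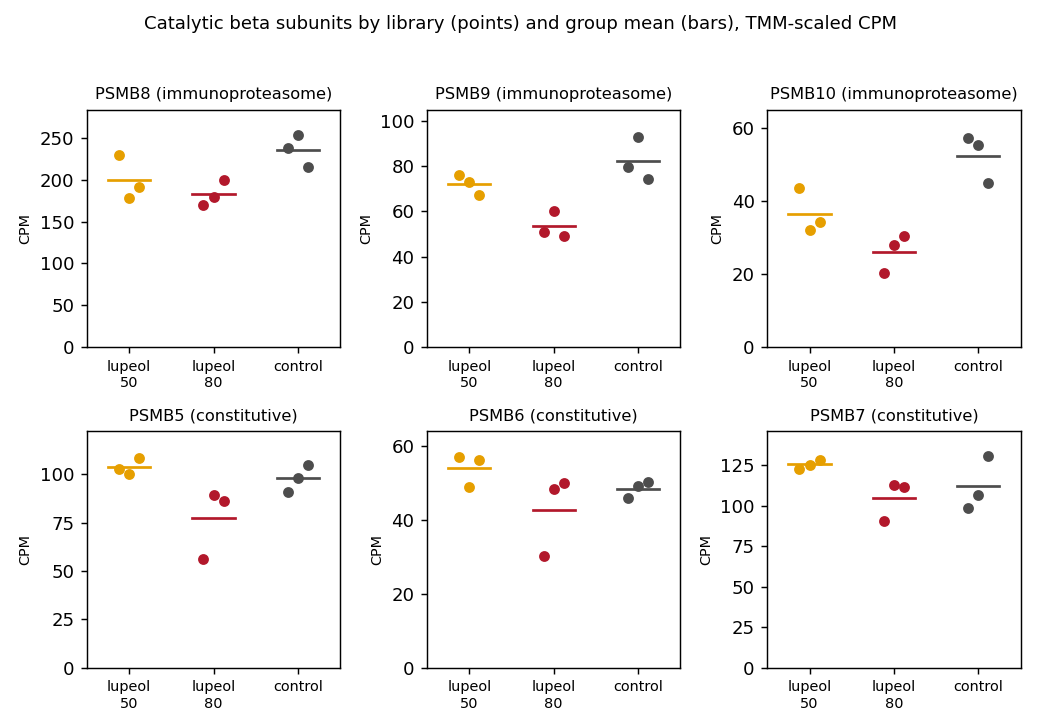
TMM-scaled CPM of the immunoproteasome subunits PSMB8, PSMB9 and PSMB10 (top) and of the constitutive subunits they replace, PSMB5, PSMB6 and PSMB7 (bottom), for lupeol 50, lupeol 80 and control, with 1 point for each library and a bar at the group mean; each axis starts at 0. The 3 lupeol 80 points of PSMB10, 20.2 to 30.3 CPM, lie below the control points, 44.9 to 57.2 CPM, while the lupeol 80 and control points of PSMB6 and PSMB7 overlap.

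Among the 6 ATPases, which form the unfolding ring of the cap base, PSMC4 (chromosome 19, 39971165 to 39981764) had the largest log2 fold change of any subunit at lupeol 50. It stood at 104, 146 and 138 CPM at lupeol 50 and at 79.6, 109 and 125 CPM at lupeol 80, against 86.2, 85.9 and 101 CPM in control. The lupeol 50 libraries lay above every control, replicate 1 by a small margin over control B and replicates 2 and 3 by a wide one, whereas the lupeol 80 libraries overlapped control. The log2 fold change was 0.51 ± 0.16 at lupeol 50 (adjusted p = 0.233) and 0.20 ± 0.16 at lupeol 80. PSMC4 was called at lupeol 50 in 3 of 18 alternatives: without a filter on low counts (0.50, adjusted p = 0.0111), without lupeol 50 replicate 1 (0.64, adjusted p = 0.0429) and with control B and lupeol 80 replicate 1 both left out (0.58, adjusted p = 0.0257). Over all alternatives its adjusted p ranged from 0.0111 to 0.824. The first and second of these settings called 1.54% and 2.34% of all genes.

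PSMC1 had the lowest log2 fold change of any subunit at lupeol 80. It stood at 78.3, 64.6 and 69.1 CPM at lupeol 50 and at 47.1, 57.6 and 59.0 CPM at lupeol 80, against 66.0, 60.9 and 81.4 CPM in control. The lupeol 80 libraries lay below all 6 others, with values of -0.35 ± 0.14 against control (adjusted p = 0.17) and -0.37 ± 0.14 against lupeol 50 (adjusted p = 0.216). With control B and lupeol 80 replicate 1 both left out, the value against control was -0.12. As its coding bases overlap NRDE2 on the other strand, its counts may include reads of that gene.

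PSMC3 stood at 232, 224 and 220 CPM at lupeol 50 and at 141, 209 and 203 CPM at lupeol 80, against 207, 203 and 217 CPM in control. PSMC5 stood at 123, 120 and 125 CPM at lupeol 50 and at 72.0, 105 and 112 CPM at lupeol 80, against 108, 100 and 115 CPM in control. In both genes the lupeol 50 libraries lay above every control, and at lupeol 80 replicate 1 lay far below the rest while replicates 2 and 3 lay near or within the control range. The log2 fold changes of PSMC3 were 0.11 ± 0.13 at lupeol 50 and -0.18 ± 0.13 at lupeol 80, and those of PSMC5 were 0.19 ± 0.14 and -0.16 ± 0.14. Without lupeol 80 replicate 1 the lupeol 80 values were -0.03 for PSMC3 and 0.01 for PSMC5. PSMC2 and PSMC6 had values of 0.16 and 0.21 at lupeol 50, and of 0.01 and 0.16 at lupeol 80, and overlapped in every comparison.

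The 11 other cap subunits held the highest median at lupeol 50, 0.24, and 5 of the 6 subunits with an unadjusted p under 0.05 there: PSMD6, PSMD7, PSMD11, PSMD12 and PSMD13. Each is a subunit of the lid, as are PSMD3, PSMD8 and PSMD14, whose unadjusted p-values in the edgeR fit were 0.238, 0.203 and 0.0553. SEM1, a small lid protein outside the 31, lay on the other side, at -0.32 ± 0.14 at lupeol 50 (unadjusted p = 0.0368) and -0.49 ± 0.14 at lupeol 80 (adjusted p = 0.089). PSMD12 (chromosome 17, 67337916 to 67366605) stood at 157, 196 and 189 CPM at lupeol 50 and at 178, 167 and 202 CPM at lupeol 80, against 140, 136 and 166 CPM in control. At lupeol 80 all libraries lay above the controls, replicate 2 barely above control B, and at lupeol 50 replicate 1 fell within the control range. Its log2 fold changes were 0.29 ± 0.12 at lupeol 50 (adjusted p = 0.358) and 0.31 ± 0.12 at lupeol 80 (adjusted p = 0.187).

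PSMD13 stood at 146, 172 and 163 CPM at lupeol 50 and at 129, 141 and 161 CPM at lupeol 80, against 126, 132 and 145 CPM in control. PSMD6 stood at 113, 125 and 123 CPM at lupeol 50 and at 105, 113 and 122 CPM at lupeol 80, against 93.4, 101 and 109 CPM in control. For both, the lupeol 50 libraries lay above every control, narrowly for replicate 1, and the lupeol 80 libraries overlapped control. The log2 fold changes at lupeol 50 were 0.26 ± 0.12 for PSMD13 (adjusted p = 0.39) and 0.25 ± 0.11 for PSMD6 (adjusted p = 0.381). PSMD7 was the 1 subunit with an unadjusted p under 0.05 above control at both doses besides PSMD12, at 0.24 ± 0.11 and 0.25 ± 0.11, and both its doses lay above every control. PSMD14 itself had values of 0.24 ± 0.12 and 0.19 ± 0.12.

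PSMD2 and PSMD4 showed small log2 fold changes at lupeol 50. PSMD2, which docks ubiquitin receptors and shuttles, had 370, 363 and 362 CPM at lupeol 50 and 302, 330 and 313 CPM at lupeol 80, against 352, 347 and 360 CPM in control. Its libraries separated fully, with lupeol 50 highest and lupeol 80 lowest, but over a narrow span: the log2 fold changes were 0.05 ± 0.10 at lupeol 50 and -0.16 ± 0.10 at lupeol 80 (adjusted p = 0.385). PSMD4 had 242, 245 and 237 CPM at lupeol 50 and 169, 214 and 234 CPM at lupeol 80, against 216, 223 and 250 CPM in control. Its values overlap control at both doses, at 0.07 ± 0.12 and -0.16 ± 0.12. PSMD1, PSMD3, PSMD8 and PSMD11 had values of 0.15 to 0.25 at lupeol 50 and of -0.17 to 0.08 at lupeol 80.

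The genes that build, regulate and supply the proteasome were followed in lists of the same pathway. Of 8 other proteins of the cap, 1 was called: USP14, a deubiquitinase that binds the cap and trims ubiquitin chains, rose by 0.50 ± 0.11 at lupeol 80 (adjusted p = 0.0361). It stood at 113, 131 and 125 CPM at lupeol 50 and at 138, 135 and 146 CPM at lupeol 80, against 104, 95.1 and 99.1 CPM in control. All treated libraries lay above every control, and the lupeol 50 value of 0.31 ± 0.11 was not called (adjusted p = 0.271). Its log2 fold change at lupeol 80 stayed between 0.47 and 0.52 over 18 alternatives, while its adjusted p ranged from 0.00165 to 0.205 and 11 of them called it. The call ended without control 1 (0.169), control A (0.205), control B (0.0569), lupeol 50 replicate 2 (0.0565), lupeol 50 replicate 3 (0.081) or lupeol 80 replicate 3 (0.0901), and with only the 2 groups compared (0.076). The fits without control 1 and without control A called 0% and 0.00551% of all genes at lupeol 80. The median of the 8 was 0.22 at lupeol 50 and 0.13 at lupeol 80.

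NFE2L1, which encodes NRF1, fell by 0.50 ± 0.11 at lupeol 80 (adjusted p = 0.0455), the 1 gene called of 12 on the NRF1 list. It stood at 183, 209 and 208 CPM at lupeol 50 and at 125, 146 and 116 CPM at lupeol 80, against 177, 188 and 180 CPM in control. The lupeol 80 libraries lay below all others, and lupeol 50 overlapped control, at 0.14 ± 0.11. Against lupeol 50 the lupeol 80 value was -0.63 ± 0.12, not called (adjusted p = 0.056, from 0.000239 to 0.279 over 18 alternatives, 5 of which called it). Its call at lupeol 80 held in 7 of 18 alternatives, with adjusted p-values from 0.00496 to 0.219 and log2 fold changes from -0.59 to -0.41. Leaving out 1 library ended the call without control 1 (0.185), control A (0.219), control B (0.0648), lupeol 50 replicate 2 (0.0622), lupeol 50 replicate 3 (0.0926), lupeol 80 replicate 1 (0.0612) or lupeol 80 replicate 3 (0.122). The call also ended with limma-voom (0.0545), with edgeR without scaling factors (0.0565), on genes of at least 5 CPM (0.0515) and with only the 2 groups compared (0.0875). Without control 1 and without control A, 0% and 0.00551% of all genes were called at lupeol 80. The list also holds the protease DDI2, the deglycosylase NGLY1, the VCP segregase with its partners, NFE2L2, small MAF genes and the SYVN1 and SEL1L ligase. Its medians were 0.14 at lupeol 50 and 0.03 at lupeol 80. Its log2 fold changes ranged from -0.174 to 0.835 at lupeol 50, with no gene called, and from -0.495 to 0.336 at lupeol 80.

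edgeR called no gene of the other lists at either dose in the fit of all 9 libraries. Among 5 activators and inhibitors of the core, PSME2, an interferon-inducible activator subunit, had the lowest value at lupeol 80, -0.38 ± 0.11 (adjusted p = 0.0846), and PSME4, a nuclear activator, the highest, 0.28 ± 0.11 (adjusted p = 0.179). Among 8 genes of assembly and nuclear import, PSMG1 stood at 0.36 ± 0.13 (adjusted p = 0.146) and AKIRIN2, which carries proteasomes into the nucleus, at 0.31 ± 0.13 (adjusted p = 0.206). POMP, which matures the core, stood at 0.22 ± 0.13 at lupeol 50 and 0.15 ± 0.13 at lupeol 80. Among 14 ubiquitin genes, activating enzymes and shuttles, ZFAND5 stood at 0.38 ± 0.11 (adjusted p = 0.0976) and UBQLN1, a shuttle, at 0.30 ± 0.11 (adjusted p = 0.159) at lupeol 80. The medians of these 3 lists at lupeol 80 were 0.07, 0.11 and 0.09, and at lupeol 50 they were -0.03, 0.06 and 0.12. Some alternatives called genes of these lists at lupeol 80. DESeq2 called PSME2 (adjusted p = 0.0267) and ZFAND5 (0.0433), beside 2.65% of the 33754 genes with a count. With control B and lupeol 80 replicate 1 both left out, edgeR called PSME2 (0.0186), AKIRIN2 (0.0324) and UBQLN1 (0.0351), beside 4.78% of all genes. Over 18 alternatives the adjusted p ranged from 0.0186 to 0.342 for PSME2, 0.0433 to 0.342 for ZFAND5, 0.0324 to 0.528 for AKIRIN2 and 0.0351 to 0.492 for UBQLN1. At lupeol 50, UBQLN1 stood at 0.41 ± 0.11 (edgeR, adjusted p = 0.202) and AKIRIN2 at 0.42 ± 0.13 (adjusted p = 0.229). At that dose 2 of 18 alternatives called UBQLN1, 1 called AKIRIN2 and 1 called PSME2. The smallest adjusted p-values there were 0.0116, 0.0215 and 0.0278. PSME2 was called with control B and lupeol 80 replicate 1 both left out, a fit that called 5.08% of all genes at lupeol 50.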

How the data were processed

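The transcriptomes of 9 THP-1 libraries were analysed from 1 deposited table, in which the authors give raw gene-level counts, exon coordinates and a gene length. Per the submitters' processing notes, Bowtie 0.12.2 and the build mm8, a mouse build, were used. The deposited counts stand on human Ensembl genes, and 35993 of their IDs have the same span in GENCODE 29 on GRCh38. How reads were counted, with or without strand, and what became of shared reads are unstated in the sources used here. Of 67928 rows, 1 is empty and was left out.

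Counts were tested with edgeR 4.0.16 (filterByExpr, TMM, robust quasi-likelihood F test, all 9 libraries in 1 fit with a term per group), with Benjamini-Hochberg adjustment over 17568 genes. An adjusted p under 0.05 counts as a call. The SE is the absolute log2 fold change over the square root of F. The fit has 6 residual degrees of freedom, and the common biological coefficient of variation is 0.178. Reads carry no molecular identifiers and are not independent molecules, so errors describe these libraries only. TPM was computed from the deposited length. The fit was tested on simulated data. Alternatives were DESeq2 1.42.0, limma-voom 3.58.1, other scalings and filters, fits of 2 groups, and fits without 1 library or without 2. Leaving out PSMA1, PSMA2 and PSMA6, and using another length, were chosen after seeing the data.

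Members and lists were chosen with earlier results of these data known. Values in every library are given for the 3 subunits highest and the 3 lowest by log2 fold change in each comparison, the highest and lowest level per length in each subcomplex, the catalytic subunits and their immunoproteasome counterparts, and called genes of other lists. Where a list had no call, its 2 genes of largest absolute change at lupeol 80 are named; POMP and values of the remaining subunits were added after their values were seen. A result on 1 marker is not reported here.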

Additional observations from a re-analysis of the deposited data

How the results depend on the processing

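No paired analysis was possible because the labels give no number, day or batch that links libraries across groups. Over the 9 fits that each left out 1 library, the median of the 31 subunits ranged from 0.12 to 0.24 at lupeol 50 against control, from -0.001 to 0.105 at lupeol 80 against control and from -0.22 to -0.08 at lupeol 80 against lupeol 50, and the number called at lupeol 50 ranged from 0 to 1. The fit without lupeol 50 replicate 1 made that 1 call, and it called 2.34% of all genes. With no filter on low counts 1 subunit was called at lupeol 50 and 1 for any difference, beside 1.54% and 4.22% of all genes. With control B and lupeol 80 replicate 1 both left out, the counts were 2 at lupeol 50, 1 at lupeol 80 and 2 for any difference. The shares of all genes called in that setting were 5.08%, 4.78% and 5.14%, and the median of the subunits at lupeol 80 was 0.17. With the longest coding transcript as length, the levels spanned 19.7-fold in place of 14-fold. Over the 28 subunits other than PSMA1, PSMA2 and PSMA6, the medians were 0.16, 0.01 and -0.17 in the 3 comparisons, in the order given above. The cause of these shifts was not tested.

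Of 1506 values of named genes under an alternative, 28 had the other sign, none of them called in either fit. At lupeol 50 against control, PSMA2 was -0.08 with limma-voom and -0.01 without both libraries. Leaving out 1 library, it ranged from -0.37 to 0.29, PSMC1 from -0.057 to 0.164 and PSMA6 from -0.094 to 0.229. At lupeol 80 against control without both libraries, PSMC3 was 0.002, PSMC5 0.057, PSMA7 0.17, PSMB4 0.10, PSMB6 0.042, PSMD4 0.027 and PSMB7 0.12. Leaving out 1 library, PSMA2 ranged from -0.10 to 0.50, PSMC5 from -0.28 to 0.01, PSMD4 from -0.254 to -0.035, PSMA7 from -0.16 to 0.11, PSMB4 from -0.21 to 0.04, PSMB6 from -0.30 to 0.02 and PSMB7 from -0.19 to 0.04. At lupeol 80 against lupeol 50, PSMD12 ranged from -0.074 to 0.073, PSMA2 from -0.13 to 0.68, PSMA3 from -0.068 to 0.103 and AKIRIN2 from -0.222 to 0.008, and AKIRIN2 was 0.007 without both libraries.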
